A study of Sus scrofa with 36 samples.

Results

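SLC19A3 encodes a plasma membrane carrier that brings thiamine (vitamin B1) into cells, and 6 genes that act after or beside it were followed with it in the cerebellum of young piglets: SLC19A2, THTPA, TKT, PDHA1, OGDH and BCKDHA. The 7 genes were taken by their Ensembl pig identifiers from 31907 identifiers in the tables, and all 7 passed the filter on low counts, as did 15559 identifiers in all. SLC19A3 was chosen by how far MILK-IUGR piglets differed from MILK-NBW piglets in these same libraries. Its values in the diet and birth weight groups are therefore a description and carry no test. The question asked of the other 6 genes was whether they moved with it.

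The piglets formed a 2 × 2 design of birth weight and dietary fat, with 36 piglets in 4 groups of 9. NBW piglets had a normal birth weight, and IUGR piglets were intrauterine growth restricted, that is, born small after restricted growth in the womb. From 3 days of age, each piglet was fed a formula for 3 weeks. Its fat was vegetable oil in the VEG groups, and fat of cow's milk in the MILK groups. All were term-born Danish landrace × Yorkshire × Duroc crosses taken from a commercial farm, without any genetic change, and each library came from 1 piglet. The piglets came from several litters. Litter is not in the labels, so the p-values treat littermates as independent animals.

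Thiamine cannot be made by animals, and it enters cells mainly through the carriers SLC19A3 and SLC19A2. Inside the cell, thiamine is joined to pyrophosphate and then serves as the cofactor of a small set of enzymes: transketolase in the pentose phosphate pathway, and the dehydrogenase complexes that feed pyruvate, 2-oxoglutarate and branched-chain keto acids into oxidation. The brain depends on this supply for glucose oxidation, and the cerebellum is among the regions that suffer in thiamine deficiency. In people, inherited loss of SLC19A3 causes a brain disease that responds to biotin and thiamine.

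The values are CPM, that is, the read pairs on a gene relative to those on all genes of the library, with TMM scaling between libraries. They can be compared between piglets but not between genes, since no gene lengths were used. Of the 36 libraries, 33 were used and 3 that stood apart in their group were left out, piglet 202 of VEG-NBW, piglet 210 of VEG-IUGR and piglet 213 of MILK-NBW. In these 3 libraries 31.5% to 64.3% of read pairs were not assigned to a gene, against 26.7% to 30.5% in the 33 libraries. Each of the 33 libraries held 15516541 to 23027502 read pairs on genes (median 18025540). In piglet 210, SLC19A3, SLC19A2 and PDHA1 were all at 0 counts, while TKT had 13542 counts against at most 4951 in the 33 libraries. This left 9 piglets in MILK-IUGR and 8 in each other group, 16 females and 17 males in all.

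The labelled tissue was checked against marker genes. In the 33 libraries the 9 granule neuron markers summed to group medians of 5028 to 5254 CPM and the 7 Purkinje cell markers to 3414 to 3628 CPM. The cerebral cortex markers EMX1 and FEZF2 did not pass the filter on low counts, and the list of 5 cortex markers summed to 6.64 to 28.9 CPM. In a bulk tissue, fewer cells that express a gene and less RNA of that gene in each cell cannot be told apart.

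SLC19A3 (ENSSSCG00000021968, Sscrofa11.1 chromosome 15, 129071563 to 129096338) was lowest in MILK-NBW and highest in MILK-IUGR piglets. Its mean level was 2.72 ± 0.451 CPM (SD, n = 8) in MILK-NBW, 3.28 ± 0.499 CPM (n = 8) in VEG-IUGR, 3.54 ± 0.407 CPM (n = 8) in VEG-NBW and 4.68 ± 1.28 CPM (n = 9) in MILK-IUGR. The carrier was a low-count gene, with 38 to 131 read pairs per library. VEG-IUGR and VEG-NBW, neighbours in this order, differed by less than either SD, and the step from MILK-NBW up to VEG-IUGR was larger than either. The step from VEG-NBW up to MILK-IUGR was larger than the SD of VEG-NBW but smaller than that of MILK-IUGR.

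The 8 MILK-NBW piglets ranged from 2.17 to 3.59 CPM around a median of 2.61 CPM. The 9 MILK-IUGR piglets ranged from 3.24 to 7.44 CPM around a median of 4.34 CPM. Of these 9 piglets, 7 lay above the highest MILK-NBW piglet, or 4 of 9 with all 36 libraries, where the left-out MILK-NBW piglet 213 was at 4.38 CPM. Among the 33 libraries, 70 of the 72 pairs of a MILK-IUGR and a MILK-NBW piglet had the higher level in the MILK-IUGR piglet. The overlap came from 3 piglets: MILK-IUGR piglets 207 and 226, at 3.52 and 3.24 CPM, and MILK-NBW piglet 220, at 3.59 CPM. The highest MILK-IUGR piglet, 232, was at 7.44 CPM and the next, 231, at 5.71 CPM. The VEG medians lay between those of these groups, with levels of 2.70 to 4.24 CPM in VEG-IUGR (median 3.13 CPM) and 3.07 to 4.38 CPM in VEG-NBW (median 3.55 CPM).

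**Figure D1:**
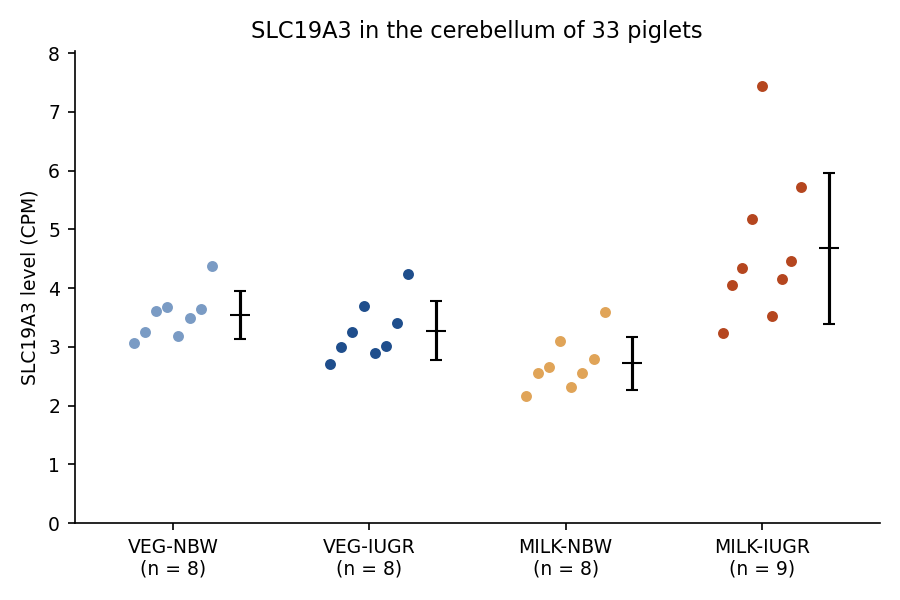
Level of SLC19A3 (vertical axis, CPM from 0) in the 33 piglets by group (horizontal axis). Each point is 1 piglet, and the bar beside the points is the mean ± SD. The MILK-IUGR points reach from 3.24 to 7.44 CPM and 7 of 9 lie above every MILK-NBW point shown (4 of 9 with all 36 libraries).

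In the fit across all genes, the log2 fold change of SLC19A3 was 0.78 (SE 0.14) for MILK-IUGR against MILK-NBW, a ratio of mean levels of 1.72. In VEG piglets, the same birth weight contrast gave −0.11 (SE 0.14). Diet gave −0.38 (SE 0.15) within NBW piglets and 0.51 (SE 0.14) within IUGR piglets. The birth weight contrast in MILK piglets minus that in VEG piglets was 0.90 (SE 0.20) on the log2 scale. The contrasts share groups, so these values are not independent of each other. In levels, MILK piglets were below VEG piglets among NBW and above them among IUGR animals.

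Leaving out each of the 33 piglets in turn moved the log2 fold change of SLC19A3 between 0.68, without piglet 232, and 0.85, without piglet 226. The mean was higher in MILK-IUGR than in MILK-NBW within each sex. These readings re-use the piglets on which SLC19A3 was chosen, so they are descriptions only. Female MILK-IUGR piglets were at 4.70 ± 1.56 CPM (n = 5) and female MILK-NBW piglets at 2.51 ± 0.312 CPM (n = 3). Males were at 4.65 ± 1.07 CPM (n = 4) and 2.84 ± 0.504 CPM (n = 5). With all 36 libraries the ratio of mean levels was 1.61, and 74 of 81 pairs had the higher level in the MILK-IUGR piglet. Between the sexes, a contrast that the choice of SLC19A3 did not use, the log2 difference of males over females was 0.015 (SE 0.10), which was not called in edgeR.

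Markers of other cells in the sample were read beside this difference. The 5 measured choroid plexus markers (TTR, KCNJ13, CLIC6, OTX2, AQP1) were all higher in MILK-IUGR, with a median log2 fold change of 2.66. At an unadjusted p-value under 0.05 in edgeR 4 of the 5 passed, beside 6.27% of all genes, and none passed the adjusted test, as no gene did. Their summed level ranged from 36.7 to 1682 CPM in MILK-IUGR (median 113 CPM) and from 16.8 to 117 CPM in MILK-NBW (median 80.4 CPM). The value of 1682 CPM was that of piglet 231, and the next MILK-IUGR piglet had 138 CPM. CLIC6 was at 0 in at least 1 library. OTX2 departed from the other 4 markers, with the smallest of the 5 values, 0.31. It was opposite to them in sign in VEG-IUGR against VEG-NBW (0.29) and in MILK-IUGR against VEG-IUGR (−0.16). Its mean count of 1155 per library was second to that of TTR (1408), so it weighs on the summed level. TTR ranged from 1.18 to 1521 CPM over the 33 libraries, and OTX2 from 6.88 to 93.0 CPM. The highest TTR level was that of piglet 231, so the mean count of TTR leans on this library. Without piglet 231, the median of the 5 markers in MILK-IUGR against MILK-NBW was 0.58, and 4 of them were higher. At the unadjusted threshold 0 of them passed (7.52% of all genes). The log2 fold change of SLC19A3 in that fit was 0.74.

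The choroid plexus markers were read in the other contrasts as well. Their median log2 fold change was −0.82 in VEG-IUGR against VEG-NBW, with 0 of 5 under an unadjusted 0.05, and −2.24 in MILK-NBW against VEG-NBW, with 3 of 5. It was 1.24 in MILK-IUGR against VEG-IUGR, with 0 of 5, and 3.48 in the interaction, with 3 of 5. Without piglet 231 these medians were −0.11, −1.63, −0.54 and 0.69, with 0, 2, 0 and 0 of 5 under 0.05, and the sign turned in MILK-IUGR against VEG-IUGR. SLC19A3 without this piglet was at −0.11, −0.38, 0.47 and 0.85 in the same contrasts. The contrasts share groups, so these are not separate pieces of evidence. The 11 endothelial markers with an identifier summed to 266 to 380 CPM (median 349 CPM) in MILK-IUGR and 327 to 381 CPM (median 343 CPM) in MILK-NBW. The 10 mural cell markers summed to medians of 243 CPM in both groups. Gene by gene, 8 of these 10 were lower in MILK-IUGR than in MILK-NBW, with a median log2 fold change of −0.14. RGS5, the mural marker with the most counts, was higher, at 0.17. Of the 10 endothelial markers past the filter, 6 were lower, with a median of −0.062. At an unadjusted p-value under 0.05 in edgeR, 0 mural and 1 endothelial marker passed, beside 6.27% of all genes. The part of choroid plexus RNA in the SLC19A3 difference was not tested.

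Among the 6 other genes, none was called in MILK-IUGR against MILK-NBW in edgeR, with p-values adjusted by the Benjamini-Hochberg method and a threshold of 0.05, where 0% of the 15559 genes tested were called. At an unadjusted p-value under 0.05, 1 of the 6 passed, OGDH, and 6.27% of all genes did. Their median log2 fold change was −0.046, beside −0.0039 over all genes tested. DESeq2 and limma voom called none of the 6 either, with 2 of all genes (0.0129%) called by each, and 1 of the 6 was under an unadjusted 0.05 in DESeq2 (6.7% of all genes) and 0 in voom (6.83%).

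SLC19A2 (ENSSSCG00000006290, chromosome 4, 81510221 to 81535099), the sister carrier of the same family, had group means within 1 SD of each other. Its mean level was 16.2 ± 1.43 CPM (n = 8) in VEG-NBW, 17.3 ± 1.85 CPM (n = 8) in VEG-IUGR, 16.1 ± 1.72 CPM (n = 8) in MILK-NBW and 16.3 ± 1.87 CPM (n = 9) in MILK-IUGR. The MILK-IUGR piglets ranged from 13.6 to 19.6 CPM (median 15.8 CPM) and the MILK-NBW piglets from 13.4 to 18.5 CPM (median 16.1 CPM), so the groups overlapped nearly in full. The log2 fold change was 0.0031 (95% interval −0.15 to 0.16, adjusted p = 0.995 in edgeR).

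THTPA (ENSSSCG00000002016, chromosome 7, 75548430 to 75553721) encodes the phosphatase that turns thiamine triphosphate back into the pyrophosphate. Its mean level lay between 21.6 ± 1.64 CPM (n = 9) in MILK-IUGR and 22.5 ± 2.72 CPM (n = 8) in VEG-IUGR. The MILK-IUGR piglets ranged from 18.2 to 23.7 CPM (median 21.7 CPM) and the MILK-NBW piglets from 19.9 to 23.7 CPM (median 22.2 CPM). The highest levels were in single VEG piglets, up to 27.5 CPM. The log2 fold change of MILK-IUGR over MILK-NBW was −0.029 (95% interval −0.17 to 0.12, adjusted p = 0.948 in edgeR). The annotated span of THTPA overlaps that of AP1G2, and without a stated strand setting of the counting, read pairs of the overlap cannot be assigned with certainty.

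**Figure D2:**
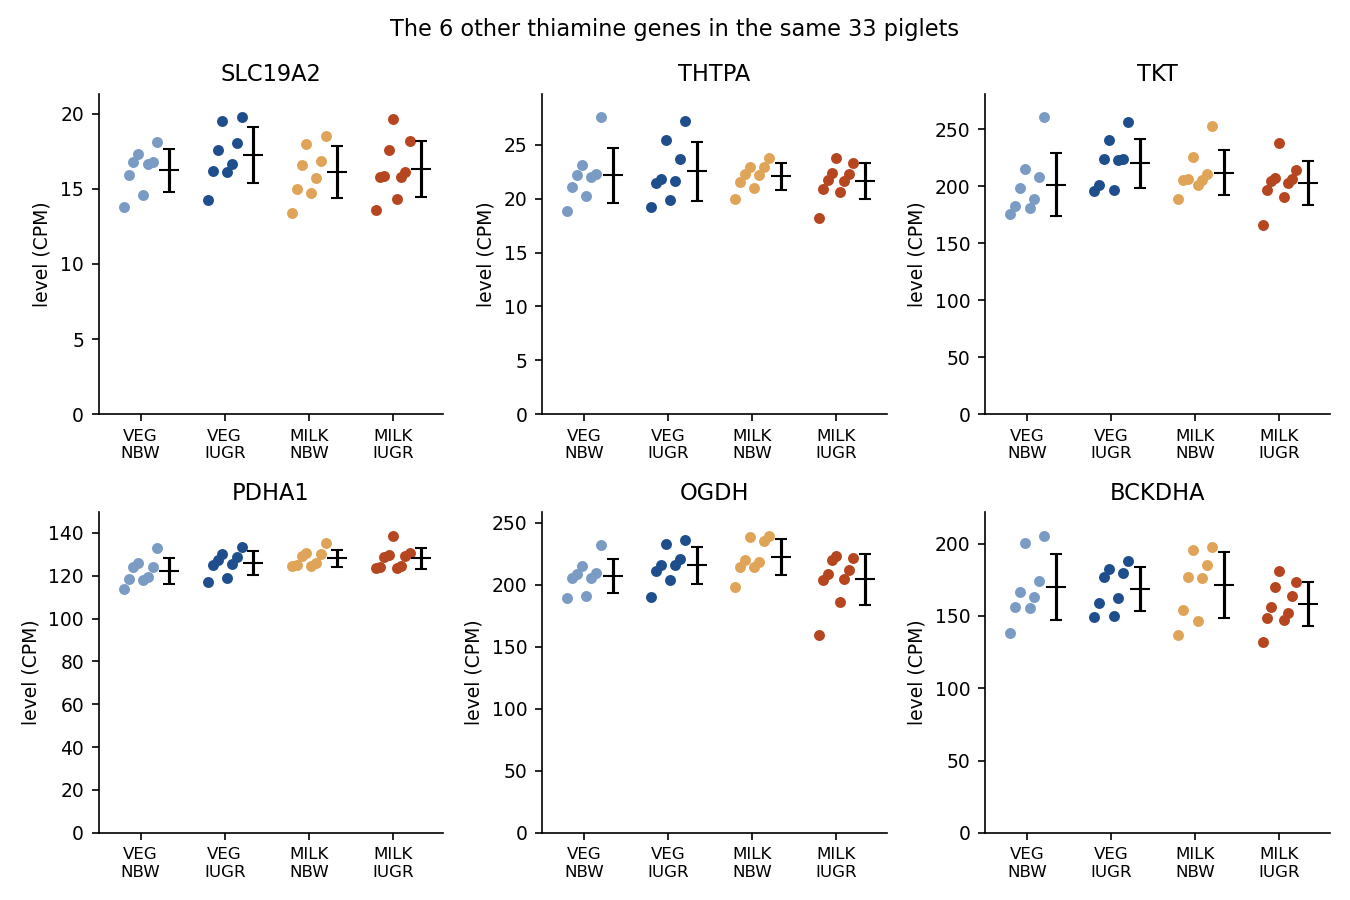
Levels (vertical axes, CPM from 0, a scale per gene) of the 6 other genes in the same 33 piglets by group (horizontal axes). Points are piglets and bars are mean ± SD. In every panel the ranges of the 4 groups overlap, and the single low OGDH point in MILK-IUGR is piglet 207 at 159.5 CPM.

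TKT (ENSSSCG00000021408, chromosome 13, 35348921 to 35377518) encodes transketolase, the thiamine enzyme of the pentose phosphate pathway. Its mean level was 201 ± 27.4 CPM (n = 8) in VEG-NBW, 220 ± 21.5 CPM (n = 8) in VEG-IUGR, 212 ± 19.5 CPM (n = 8) in MILK-NBW and 203 ± 19.2 CPM (n = 9) in MILK-IUGR. The order of the groups was not that of SLC19A3, and each neighbouring pair differed by less than an SD. MILK-IUGR piglets ranged from 165.8 to 238 CPM (median 205 CPM) and MILK-NBW piglets from 189 to 253 CPM (median 206 CPM). The log2 fold change between them was −0.063 (95% interval −0.21 to 0.088, adjusted p = 0.890 in edgeR).

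PDHA1 (ENSSSCG00000023643, chromosome X, 15699924 to 15718908) encodes the catalytic alpha subunit of pyruvate dehydrogenase, the entry of glucose carbon into the citric acid cycle. It was the steadiest of the 7 genes, with an SD of 4.34% of the mean over all 33 piglets, against 29.2% for SLC19A3. MILK-IUGR piglets were at 128 ± 4.87 CPM (n = 9; 123 to 139 CPM, median 129 CPM) and MILK-NBW piglets at 128 ± 3.88 CPM (n = 8; 124 to 135 CPM, median 128 CPM). The log2 fold change was 0.0060 (95% interval −0.071 to 0.083, adjusted p = 0.984 in edgeR), the narrowest interval of the 7. VEG-NBW piglets were at 122 ± 5.96 CPM (n = 8), and MILK-NBW exceeded them in 84.4% of pairs, a log2 difference of 0.071 with a two-sided exact permutation p of 0.0302 and an edgeR adjusted p of 0.755. The span of PDHA1 overlaps that of MAP3K15.

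OGDH (ENSSSCG00000016743, chromosome 18, 50609415 to 50684990) encodes the first subunit of the 2-oxoglutarate dehydrogenase complex, a thiamine-dependent step of the citric acid cycle. Its mean level was 222 ± 14.4 CPM (n = 8) in MILK-NBW, 216 ± 14.9 CPM (n = 8) in VEG-IUGR, 207 ± 13.4 CPM (n = 8) in VEG-NBW and 204 ± 20.3 CPM (n = 9) in MILK-IUGR. MILK-NBW, the group with the lowest SLC19A3, thus had the highest mean OGDH and MILK-IUGR the lowest. Each neighbouring pair in this order differed by less than either SD. MILK-IUGR piglets ranged from 159.5 to 223 CPM (median 208 CPM) and MILK-NBW piglets from 198 to 239.6 CPM (median 219 CPM), with 26.4% of pairs higher in the MILK-IUGR piglet. The log2 fold change was −0.12 (95% interval −0.24 to −0.0021, adjusted p = 0.782 in edgeR), so it did not pass the test.

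The exact permutation test of these OGDH levels gave a two-sided p of 0.0473 for a log2 difference of −0.13. This p-value was 0.05 or more in 11 of the 17 tests that left out 1 piglet, and without piglet 207, the lowest, the difference was −0.082 (exact permutation p = 0.0894). MILK-NBW exceeded VEG-NBW in OGDH by a log2 difference of 0.10 (exact permutation p = 0.0462), which was at 0.05 or more in 11 of 16 such tests. For the PDHA1 difference above, 6 of 16 were. These were the 3 of 24 exact tests, over 6 genes and 4 pairs of groups, with an unadjusted p under 0.05. With all 36 libraries none of these 3 was under 0.05, and 1 other test was, TKT in VEG-IUGR against VEG-NBW, with a log2 difference of 0.67 (exact permutation p = 0.0330). That test held the left-out libraries, with TKT at up to 1686 CPM in VEG-IUGR and down to 51.7 CPM in VEG-NBW. In the 33 libraries this TKT difference was 0.13 (exact permutation p = 0.123).

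BCKDHA (ENSSSCG00000028794, chromosome 6, 49381995 to 49398745) encodes the alpha subunit of the dehydrogenase that oxidises the keto acids of leucine, isoleucine and valine. Its mean level was 158 ± 15.3 CPM (n = 9) in MILK-IUGR and between 169 ± 15.3 and 171 ± 22.8 CPM (n = 8 each) in the other 3 groups. MILK-IUGR piglets ranged from 132 to 181 CPM (median 156 CPM) and MILK-NBW piglets from 137 to 198 CPM (median 177 CPM). The log2 fold change was −0.12 (95% interval −0.28 to 0.043, adjusted p = 0.805 in edgeR). The interval holds 0, and it also holds falls larger than that of OGDH.

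**Figure D3:**
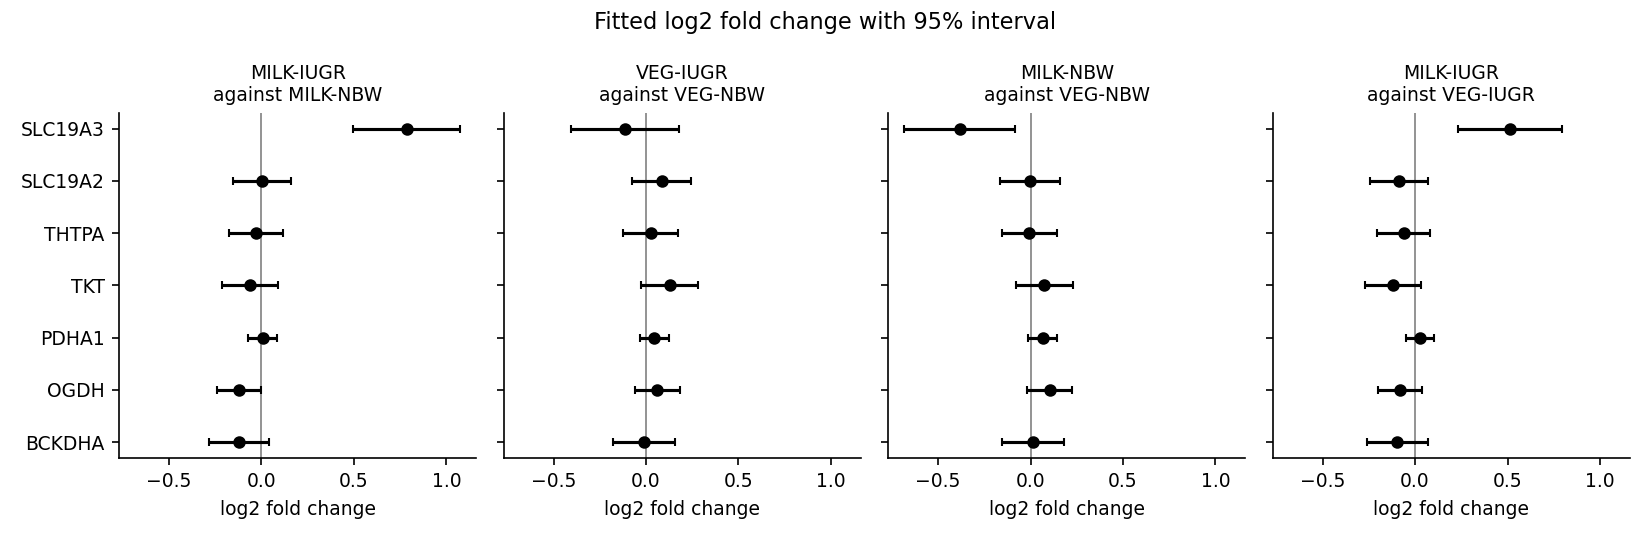
Fitted log2 fold change (horizontal axes) with its 95% interval for the 7 genes (vertical axis) in the 4 contrasts between groups. SLC19A3 stands at 0.78 in MILK-IUGR against MILK-NBW and was chosen on that contrast, whereas the other 6 genes lie between −0.12 and 0.13 in every panel.

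The other contrasts gave the same count for these 6 genes. In edgeR, 0 of 6 were called in VEG-IUGR against VEG-NBW, MILK-NBW against VEG-NBW, MILK-IUGR against VEG-IUGR, the interaction, diet and birth weight, with 0% of all genes called in each. At an unadjusted p-value under 0.05, 0 of the 6 passed in VEG-IUGR against VEG-NBW, where 2.37% of all genes did. The counts were also 0 of 6 in MILK-NBW against VEG-NBW (6.7% of all genes), MILK-IUGR against VEG-IUGR (3.92%), diet (4.29%) and birth weight (2.21%). In the interaction of diet and birth weight, where 6.07% of all genes passed, 1 of the 6 did. This was OGDH, at −0.18 (SE 0.084; adjusted p = 0.793 in edgeR), opposite in sign to SLC19A3. DESeq2 with sex called none of the 6 in any of these contrasts, and nor did limma voom. Of all genes, DESeq2 called 0.0129% in MILK-NBW against VEG-NBW and 0.00643% in the interaction, limma voom called 0.00643% in MILK-NBW against VEG-NBW, and the other contrasts had 0% with either tool. DESeq2 put 1 of the 6 under an unadjusted 0.05 in the interaction, beside 6.4% of all genes, and 0 in the others. All-gene shares there were 2.49% in VEG-IUGR against VEG-NBW, 7.05% in MILK-NBW against VEG-NBW, 4.18% in MILK-IUGR against VEG-IUGR, 4.49% for diet and 2.39% for birth weight. Limma voom put 1 of the 6 under an unadjusted 0.05 in VEG-IUGR against VEG-NBW (3% of all genes), in MILK-NBW against VEG-NBW (10.6%) and in the interaction (7.12%). It put 0 of the 6 there in MILK-IUGR against VEG-IUGR (4.65%), diet (7.59%) and birth weight (3.03%).

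The interaction value was below 0 for all 6 genes, from −0.038 for PDHA1 to −0.19 for TKT, beside a median of 1.9e-05 over all genes. The values were −0.083 for SLC19A2, −0.054 for THTPA and −0.11 for BCKDHA. None passed the adjusted test, and genes measured in the same libraries are not independent of each other. For SLC19A3 the interaction was 0.90.

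Across the sexes, 0 of the 7 genes were called in edgeR, while 25 genes or 0.161% of all were. At an unadjusted p-value under 0.05, 0 of the 7 passed, beside 2.94% of all genes. DESeq2 and limma voom each called 28 genes (0.18%) and 0 of the 7, and put 0 of the 7 under an unadjusted 0.05, beside 3.1% and 5.94% of all genes. PDHA1, which lies on the X chromosome, was at 124.5 ± 4.75 CPM in females (n = 16) and 128 ± 5.80 CPM in males (n = 17), a log2 difference of 0.035 (95% interval −0.020 to 0.090). The largest sex difference of the 7 in size was that of SLC19A2, −0.084 (95% interval −0.20 to 0.028), lower in males.

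The rest of the pathway was taken from 5 lists of 41 genes in all: thiamine transport, thiamine phosphate metabolism, catalytic subunits of the thiamine pyrophosphate enzymes, partner subunits of their complexes, and kinases and phosphatases of those complexes. Of the 41, 38 had an identifier and 36 passed the filter. Of the 35 other than SLC19A3, 0 were called in MILK-IUGR against MILK-NBW in edgeR, DESeq2 or limma voom. At an unadjusted p-value under 0.05 in edgeR, 5 of the 35 passed (14.3%, beside 6.27% of all genes), 3 higher and 2 lower. The corresponding counts were 5 in DESeq2 (6.7% of all genes) and 3 in limma voom (6.83%). The median log2 fold change of the 35 was −0.062, with 12 above and 23 below 0, and that of all genes −0.0039.

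In the transport list of 7 measured genes, SLC19A3 was the only one with a positive value beyond 0.01. The cation carriers SLC22A2 and SLC47A1, which also move thiamine, had the lowest values, −1.06 (SE 0.57) and −0.51 (SE 0.29), with an adjusted p of 0.782 each in edgeR. SLC22A2 was variable between piglets, at 0.284 to 2.21 CPM in MILK-IUGR (median 1.26 CPM) and 0.666 to 5.55 CPM in MILK-NBW (median 1.94 CPM). SLC47A1 ranged from 3.88 to 10.8 CPM (median 6.14 CPM) and from 4.38 to 14.4 CPM (median 9.02 CPM). Both sets of groups overlapped. The proposed thiamine carrier SLC35F3 was at −0.070 (SE 0.082) and SLC44A4, the carrier of thiamine pyrophosphate in the colon, at −0.22 (SE 0.32).

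In phosphate metabolism, the adenylate kinase AK1 was at −0.079 (SE 0.070), and neither it nor THTPA passed even the unadjusted test.

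Among the 12 catalytic subunits, 3 were above and 9 below 0, with a median of −0.063, and OGDH was the only one under an unadjusted 0.05. The transketolase relative TKTL1 had the lowest value, −0.42 (SE 0.43), but only 1 to 15 counts per library in the MILK groups. PDHB, the partner chain of PDHA1, was at 0.062 (SE 0.062) and BCKDHB, that of BCKDHA, at −0.017 (SE 0.080). OGDHL, a close relative of OGDH, was at −0.099 (SE 0.070).

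Partner subunits and regulators held the other 4 genes under an unadjusted 0.05. DLD, the lipoamide dehydrogenase that these complexes share, was at 170.2 ± 26.2 CPM (n = 9) in MILK-IUGR and 149 ± 11.9 CPM (n = 8) in MILK-NBW, a log2 fold change of 0.21 (SE 0.085). DBT, the acyltransferase of the branched-chain complex, was at 39.5 ± 2.11 and 35.8 ± 3.41 CPM, a log2 fold change of 0.15 (SE 0.059). BCKDK, the kinase that switches that complex off, was at 68.2 ± 6.44 and 75.5 ± 5.84 CPM, a log2 fold change of −0.14 (SE 0.064). All had an adjusted p of 0.782 in edgeR, so none passed the test. In each case the ranges of the MILK-IUGR and MILK-NBW groups overlapped.

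PDK4, the kinase that switches off pyruvate dehydrogenase in fasting and when fat is burned, had the largest value among the regulators. Its mean level was 14.8 ± 1.09 CPM (n = 8) in VEG-NBW, 16.5 ± 3.13 CPM (n = 8) in VEG-IUGR, 17.6 ± 2.57 CPM (n = 8) in MILK-NBW and 22.1 ± 7.22 CPM (n = 9) in MILK-IUGR. The 9 MILK-IUGR piglets ranged from 15.3 to 34.7 CPM around a median of 19.0 CPM. The 3 highest, piglets 207, 231 and 225, were at 34.7, 33.2 and 24.7 CPM, and the other 6 lay at 20.1 CPM or lower, within the range of the MILK-NBW piglets (13.2 to 21.1 CPM). For MILK-IUGR against MILK-NBW the log2 fold change was 0.33 (SE 0.14; adjusted p = 0.782 in edgeR), and for diet over both birth weights it was 0.34 (SE 0.098; adjusted p = 0.983). Piglet 207, highest in PDK4 among the 9, was the lowest in OGDH, and only piglet 226 was below it in SLC19A3. Piglets 231 and 225, the next in PDK4, were high in SLC19A3, at 5.71 and 5.17 CPM. Only piglet 232 of the 9 was above them there, at 7.44 CPM. Without piglet 207, the log2 fold change of SLC19A3 was 0.82.

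**Figure D4:**
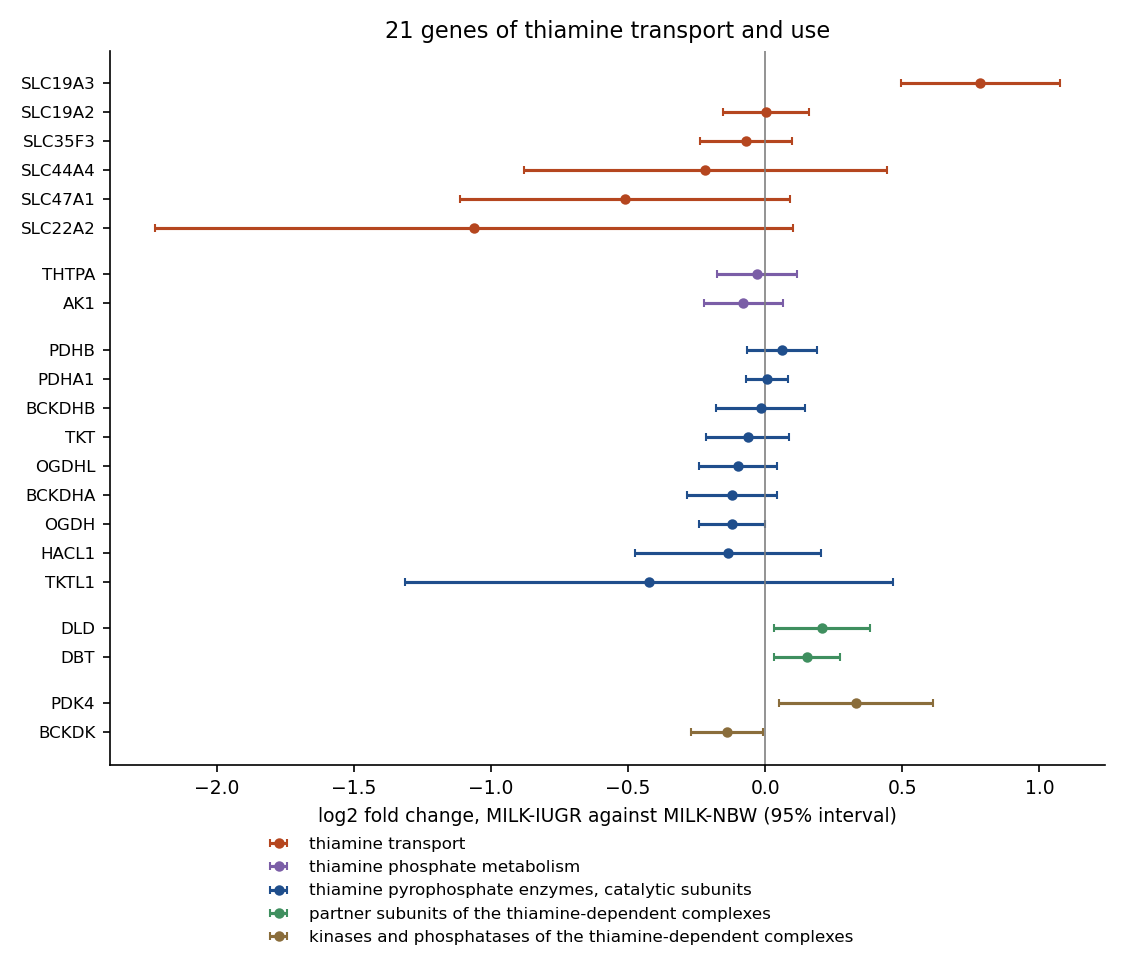
Fitted log2 fold change of MILK-IUGR over MILK-NBW (horizontal axis) with its 95% interval for 21 of the 36 measured genes of the 5 thiamine lists, those named in the text (vertical axis, colours mark the lists). The genes other than SLC19A3 reach from −1.06 for SLC22A2 to 0.33 for PDK4, and none was called.

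The counts over the 35 pathway genes in the other contrasts were likewise 0 at the adjusted threshold in edgeR, and 0 in DESeq2 with sex and limma voom. At an unadjusted p-value under 0.05, 3 of the 35 passed in VEG-IUGR against VEG-NBW (8.57%, beside 2.37% of all genes), 1 in MILK-NBW against VEG-NBW (2.86%, beside 6.7%), 4 in MILK-IUGR against VEG-IUGR (11.4%, beside 3.92%) and 6 in the interaction (17.1%, beside 6.07%). For diet, birth weight and sex 1 passed in each (2.86%), beside 4.29%, 2.21% and 2.94% of all genes. DLD and DBT had interactions of 0.30 (SE 0.12) and 0.20 (SE 0.084), the same sign as SLC19A3. BCKDK had an interaction of −0.23 (SE 0.091), and HACL1, an enzyme of fatty acid alpha-oxidation that also uses thiamine pyrophosphate, of −0.49 (SE 0.24). All had an adjusted p of 0.793 in edgeR.

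Whether the 6 genes varied with SLC19A3 from piglet to piglet was read from log2 CPM after the means of group and sex were removed, which sets aside the group difference used to choose SLC19A3. Over the 33 piglets, Pearson's r with SLC19A3 was 0.25 for OGDH (permutation p = 0.154), with Spearman's rho of 0.22 (p = 0.218) and an r of 0.28 without the 2 piglets farthest from the median of SLC19A3. SLC19A2 had an r of 0.13 (permutation p = 0.485), a rho of 0.12 (p = 0.488) and an r of 0.28 without those 2 piglets. For PDHA1 the r was 0.12 (permutation p = 0.507), the rho 0.12 (p = 0.505) and the r without the 2 piglets −0.058. These are weak relations, and none passed the test. The median count of SLC19A3 was 49 in MILK-NBW and at most 79, in MILK-IUGR, so counting error makes up part of its residuals. Such error weakens r, so a weak r cannot show that these genes vary apart from SLC19A3.

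The remaining 3 genes lay nearer to 0. BCKDHA had an r of 0.094 (permutation p = 0.605), a rho of 0.18 (p = 0.328) and an r of 0.042 without the 2 piglets. THTPA had an r of −0.072 (permutation p = 0.689), a rho of −0.088 (p = 0.626) and an r of −0.077 without them. TKT had an r of −0.091 (permutation p = 0.614), a rho of 0.055 (p = 0.758) and an r of −0.13 without them. In the family of 19 relations, which also held 11 marker lists, the total count and the share of unassigned reads, the smallest adjusted p was 0.834 for r and 0.845 for rho. The r was highest for the choroid plexus list, 0.28 (permutation p = 0.114; rho 0.34, p = 0.0542), and it was 0.15 without the 2 piglets. The total count had an r of −0.26 (permutation p = 0.136).

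The 6 genes were also compared with each other in the same way, in 15 pairs. BCKDHA rose and fell with OGDH, with an r of 0.65 (permutation p = 1e-05, the lowest p these permutations allow, adjusted p = 0.00015) and a rho of 0.72 (p = 1e-05). It did so with TKT as well, with an r of 0.65 (permutation p = 4e-05; adjusted p = 0.0003) and a rho of 0.63 (p = 0.00012). Without the 2 piglets farthest from the median of the first gene, OGDH or TKT, these were 0.72 and 0.57. The other 13 pairs had adjusted p-values of 0.169 or more, among them SLC19A2 with PDHA1 at r = −0.37 (permutation p = 0.0339, adjusted p = 0.169; rho −0.38). The residuals share library depth and scaling, and the part of these in the pairs was not tested.

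**Figure D5:**
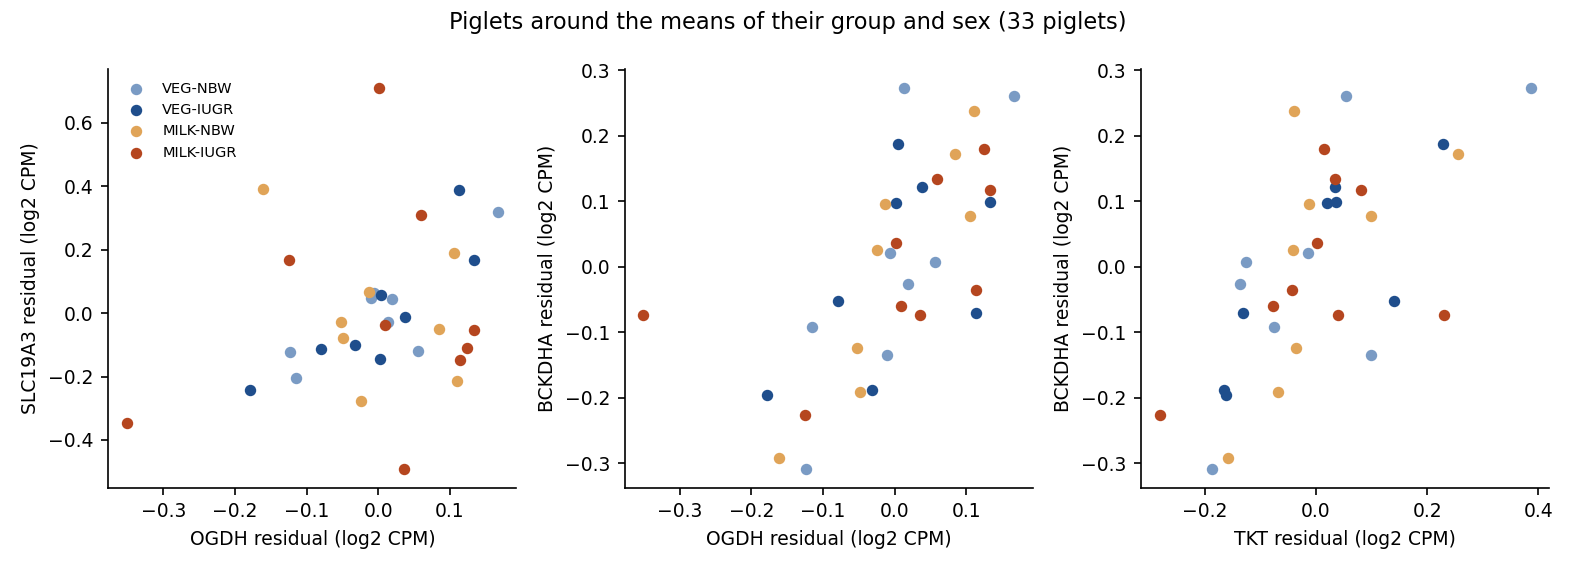
Residuals of log2 CPM after the means of group and sex were removed, for SLC19A3 against OGDH (left), BCKDHA against OGDH (middle) and BCKDHA against TKT (right). Each point is 1 of 33 piglets, coloured by group. The right and middle clouds slope upward (r of 0.65 in each), and the left one is loose (r of 0.25).

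The genes most like SLC19A3 between piglets were found in the same residuals among 12596 genes with a symbol, as a description. The highest r were those of MGAT5 (0.56), GPR84 (0.56), EBPL (0.55), SEMA4B (0.55) and DNMBP (0.54). Without the 2 piglets farthest from the median of SLC19A3, these were 0.42, 0.40, 0.44, 0.50 and 0.48. The lowest were those of ZNF883 (−0.56), SYCP3 (−0.55), CCN1 (−0.52), COIL (−0.52) and PHYKPL (−0.52). Without those 2 piglets they were −0.40, −0.57, −0.46, −0.59 and −0.27. GPR84 and SYCP3 had low median levels, 0.42 and 0.78 CPM, so counting error is also part of their values. Over all these genes the r ran from −0.27 at the 5th to 0.29 at the 95th percentile. OGDH ranked 942, SLC19A2 3180, PDHA1 3329, BCKDHA 3960, THTPA 8500 and TKT 8958 of 12596 from the highest r down. None of the 6 genes was among the 5 highest or the 5 lowest, and the counting error of SLC19A3 limits this ranking as well.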

How the data were processed

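Cerebellar RNA of 36 piglets was sequenced as paired-end reads on the Illumina NovaSeq platform, and the authors deposited 1 table of raw counts per piglet, with no normalization. The submitters' processing notes name Trim Galore, HISAT2, HTSeq and DESeq2 and the build Sscrofa11.1; versions, annotation release and strand setting are not given in the sources used here. The 5 closing lines of each table, for reads without a gene, were kept out of library sizes. Groups and sex came from the labels. Single values of some genes of the lists are not reported here.

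Of the 36 libraries, 33 were used. The study left out 1 library of low RNA integrity in each of 3 groups without naming it; here the library with the highest share of unassigned reads in each of these groups was left out. The genes, lists, library set and tests were chosen with earlier results of these data known.

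The counts went into the quasi-likelihood test of edgeR 4.0.16 (R 4.3.3), in models that hold sex as a term. Libraries were scaled by TMM, and genes were kept by filterByExpr at its minimum count of 10. Contrasts between groups, their interaction and sex came from a model of the 4 group means, and diet and birth weight from a model without interaction. P-values were adjusted over all genes tested (Benjamini-Hochberg, called under 0.05), and 95% intervals used the SE with 28 degrees of freedom. Interaction values are the birth weight contrast in MILK minus that in VEG, and sex values are male over female. Log2 CPM had a prior count of 2. Exact two-sided permutation tests and permutation tests of correlations (1e+05 draws) were run in Python 3.11.15 with SciPy 1.17.1. Alternatives were DESeq2 1.42.0, limma 3.58.1 voom with quality weights, other scalings and filters, fits without sex or of 2 groups, all 36 libraries, and each piglet left out in turn. The gene tests were tested on simulated data. Symbols (15029 of 31907 identifiers) and positions came from RefSeq tables of Sscrofa11.1. Genes of the pathway lists were named where they were among the 5 of largest change, and the 5 most and 5 least like SLC19A3 by r; the others, with unadjusted p under 0.05 or a role beside a member, were chosen after their values were seen. Counting error at 38 counts or more per library is part of the spread between piglets.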

Additional observations from a re-analysis of the deposited data

Results flagged for a closer look

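In 3 of 28 groups of values, 7 genes in 4 groups, the highest piglet lay far from the others by Dixon's test, where chance alone flags about 1 in 20. For SLC19A3 in VEG-NBW this was piglet 200, at 4.38 CPM with the next piglet at 3.67 CPM, a gap of 0.539 of the group's range. Without piglet 200, the log2 fold change of SLC19A3 for MILK-IUGR against MILK-NBW was 0.79. For TKT in VEG-NBW it was piglet 216, at 260.5 CPM with the next at 215 CPM, a gap of 0.542 of the range. For PDHA1 in MILK-IUGR it was piglet 231, at 139 CPM with the next at 131 CPM, a gap of 0.523 of the range. Piglet 231 also had the high level of choroid plexus markers.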

How the results depend on the processing

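None of the 6 genes beside SLC19A3 was called in any contrast under any alternative run, nor was any of the 35 pathway genes, whose count without single piglets was run for MILK-IUGR against MILK-NBW only, and the log2 fold change of SLC19A3 for MILK-IUGR against MILK-NBW stayed positive. The changes of sign came with all 36 libraries or in values near 0. For MILK-IUGR against MILK-NBW, SLC19A2 became −0.011 with all 36 libraries in edgeR, −0.0025 in limma voom and −0.0089 in limma voom with all 36. PDHA1 became −0.0016 without sex, and THTPA became 0.019 in DESeq2 with all 36. Leaving out 1 piglet gave −0.027 to 0.038 for SLC19A2, −0.0082 to 0.015 for PDHA1 and −0.048 to 0.0034 for THTPA. In differences of mean log2 CPM with all 36 libraries, SLC19A2 became −0.0099 for MILK-IUGR against MILK-NBW, −0.74 for VEG-IUGR against VEG-NBW and 0.73 for MILK-IUGR against VEG-IUGR. THTPA became 0.018 for MILK-IUGR against MILK-NBW and 0.010 for MILK-NBW against VEG-NBW. PDHA1 became 0.071 and −0.94 for the contrasts of birth weight in MILK and VEG, and BCKDHA 0.18 for the latter. In correlations with SLC19A3, TKT had a rho of 0.055, PDHA1 an r of −0.058 without 2 piglets, and with all 36 libraries OGDH had −0.47 and BCKDHA −0.79. The correlations of SLC19A2 and PDHA1 with all 36 were 0.95 and 0.92, those of THTPA and TKT −0.81 and −0.83, and piglet 210 has 0 counts of SLC19A3, SLC19A2 and PDHA1. With all 36 libraries, 62 genes in place of 976 had an unadjusted p under 0.05 in edgeR for MILK-IUGR against MILK-NBW, 1380 in place of 368 for VEG-IUGR against VEG-NBW, and 0 of the 35 pathway genes in place of 5 for the first. Over all values and settings other than leaving out 1 piglet, 217 kept their direction and side of the threshold, 17 changed sign, 5 newly passed and 3 no longer passed. Leaving out 1 piglet kept 537, changed the sign of 12 and lost 28, all 28 among the exact tests of OGDH and PDHA1. The cause was not tested. The number of libraries, 8 or 9 per group, and the 38 to 131 counts of SLC19A3 limit the precision. No paired analysis was possible, since each group held different piglets and the labels do not give litter. Alternatives that joined all 36 libraries with limma voom or DESeq2, the exact tests without each piglet, and the choroid plexus markers without piglet 231, were added after seeing the data.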
